A study of Mus musculus with 15 samples.

Results

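The nuclear genes of oxidative phosphorylation were taken as the protein-coding rows of the gene table whose symbols begin with Ndufa, Ndufb, Ndufc, Ndufs or Ndufv, with Cox4 to Cox8, with Uqcr or with Atp5, or are Sdha, Sdhb, Sdhc or Sdhd. This gave 93 of 38315 genes. Of these, 38 were subunits of complex I, 4 of complex II, 8 of complex III, 18 of complex IV and 17 of complex V, and 8 were complex I assembly factors (Ndufaf genes), which the name rule also takes. Ndufa4 and Ndufa4l2, named after complex I, were counted with complex IV, where the Ndufa4 protein resides. Of the 93, 90 passed a filter on low values and were tested. Ndufb11b, a retrocopy of Ndufb11, and the isoforms Cox7a1 and Ndufa4l2 did not pass it. Cox5b-ps is named as a pseudogene but listed as protein-coding, so the rule takes it too. The values are from bulk sequencing of total RNA of mouse bone marrow in 3 groups. The AML group held 7 marrows with acute myeloid leukaemia from mice that carry NUP98-NSD1, a fusion of a nucleoporin gene with a histone methyltransferase gene, together with FLT3-ITD, an internal tandem duplication in a receptor tyrosine kinase gene. The other groups were wild-type: 4 whole marrows, and 4 lineage-negative marrows, that is, marrow depleted of maturing blood cells by their lineage antigens. The promoters that drive the mutant alleles, the age and sex of the mice and the antibodies of the depletion are not given in the sources used here. The labels do not tie each sample to a mouse of its own, so p-values measure only the spread between these samples.

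Oxidative phosphorylation makes ATP in the inner mitochondrial membrane. Complex I takes electrons from NADH and complex II from succinate, ubiquinone carries them to complex III and cytochrome c to complex IV, which reduces oxygen. Complexes I, III and IV pump protons across the membrane, and complex V, the ATP synthase, uses their return to make ATP. Some subunits of complexes I, III, IV and V are encoded by mitochondrial DNA, so these complexes are assembled from products of both genomes. In marrow, quiescent stem cells are known to depend more on glycolysis, whereas dividing progenitors and many myeloid leukaemias depend on mitochondrial respiration.

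Nuclear genes of the respiratory chain have no common promoter type, but many carry sites for NRF1, a transcription factor named for its role in nuclear respiratory genes. RefSeq promoter windows of GRCm38.p6, with 250 bases before and 50 after the start, were at hand for 75 of the 93 members, in 80 entries. The palindromic NRF1 sequence, which stands in capitals in each of the lines that follow, was in 8.75% of these entries and in 1.331% of 21263 windows of all protein-coding genes, read on both strands. The shorter GCATGCGC, which lies within it, was in 15% against 3.518%. The ETS sequence CCGGAAG was in 23.75% against 11.56%, the YY1 sequence AAGATGGC in 13.75% against 3.052%, CCAAT in 42.5% against 38.19% and TATAAA in 8.75% against 12.6%. These are matches of letters and not measured sites. The 7 members with the full NRF1 sequence are shown with 30 bases each, the match in capitals, because they span the assembly factors and complexes I, III, IV and V.
Ndufaf4: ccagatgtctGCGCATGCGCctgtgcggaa
Ndufaf5: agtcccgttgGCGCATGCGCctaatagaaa
Ndufa11: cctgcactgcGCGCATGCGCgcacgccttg
Uqcrc1: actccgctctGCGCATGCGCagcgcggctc
Cox6a1: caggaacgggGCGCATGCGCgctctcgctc
Atp5g2: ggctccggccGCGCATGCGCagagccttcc
Atp5k: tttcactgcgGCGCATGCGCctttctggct
The windows lie at chr4:24897960-24897989 (plus strand) for Ndufaf4, chr2:140170652-140170681 (plus) for Ndufaf5, chr17:56717692-56717721 (plus) for Ndufa11 and chr9:108936668-108936697 (plus) for Uqcrc1. Those of Cox6a1 (chr5:115349101-115349130), Atp5g2 (chr15:102671070-102671099) and Atp5k (chr5:108434430-108434459) are on the minus strand. Relative to the start, the match began at −113 in Ndufaf4, −60 in Ndufa11, −162 in Cox6a1, −42 in Atp5g2 and −50 in Atp5k. It began after the start in Ndufaf5, at 16, and in Uqcrc1, at 30. Of these 7 genes, Ndufaf4 and Uqcrc1 were lower in AML than in lineage-negative marrow at an adjusted p under 0.05 in limma, and the other 5 did not pass. This is near the background, as 25.5% of all genes were lower, and 33.0% of protein-coding genes with a mean of at least 100. A link between the NRF1 letters and these differences was not tested. The 250 bases before the start of Ndufaf4 (RefSeq GRCm38.p6, chr4:24897833-24898082, plus strand) are printed because this gene had the lowest difference of any complex I gene in that comparison, again with the NRF1 letters in capitals.
Ndufaf4 promoter: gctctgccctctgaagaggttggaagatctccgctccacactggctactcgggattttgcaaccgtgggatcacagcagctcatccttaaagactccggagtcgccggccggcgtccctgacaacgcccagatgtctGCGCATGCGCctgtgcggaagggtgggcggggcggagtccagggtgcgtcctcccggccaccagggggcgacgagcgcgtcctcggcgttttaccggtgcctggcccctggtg

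The libraries differed in ways that touch these genes. The estimated depth was 11.4 to 17.2 M reads in whole marrow and 20.3 to 35.1 M reads in the other groups, so depth and group cannot be told apart. A floor of 3 reads was worth 1.72 to 5.75 rescaled counts. Whole marrow had fewer genes at 0, 7.12% to 15.7% of the table, than lineage-negative marrow, with 35.7% to 41.0%. The cell makeup differed too. Over 12 erythroid markers the summed level was 1754220 to 2537400 in whole marrow, 32685 to 62263 in lineage-negative marrow and 2753 to 31435 in AML. Between the normal groups 10 of these markers were lower in lineage-negative marrow, beside 31.5% of all genes, and 2 did not pass. Car1 ran the other way, at 7301 to 11250 in lineage-negative marrow and 2417 to 3126 in whole marrow. Over 12 neutrophil markers the summed level was 399797 to 1178340 in AML, 876189 to 1423490 in whole marrow and 87993 to 155316 in lineage-negative marrow. That list went both ways between AML and lineage-negative marrow: 9 markers were higher in AML and 3, the granule genes Mpo, Elane and Prtn3, were lower. Of all genes 26.1% were higher and 25.5% lower in that comparison. Mpo alone made up 69718 to 107555 of the lineage-negative sums. The 10 stem and progenitor markers summed to 13106 to 16787 in lineage-negative marrow, 2870.4 to 3078 in whole marrow and 2524 to 4851 in AML. These markers did not all move together: set against lineage-negative marrow, 7 fell in AML, beside 25.5% of all genes, 2 did not pass and Ly6a rose. The AML values of Ly6a were 347 to 1711, and no lineage-negative library exceeded 76.4. The part of these differences in the results on oxidative phosphorylation genes was not tested. In bulk RNA, fewer cells of a type and less RNA per cell cannot be told apart.

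Values are the authors' normalized counts, rescaled to a common level by the trimmed mean of M values (TMM). A difference is that of the group means of log2(value + 1), and a gene passed at an adjusted p under 0.05 in limma, with p-values adjusted over 18941 genes. AML against whole marrow sets leukaemia beside normal marrow with its mature cells. Of the 90 members, 23 were higher in AML and 1, Cox6b2, was lower, and their median log2 difference was 0.28. Of all genes tested 16.9% were higher and 20.9% lower, with a median of −0.010 (4.73% were fitted as at least 2-fold higher, among the members only Cox4i2, which lies near the floor), and of 10248 protein-coding genes with a mean of at least 100, 25.9% were higher and 13.8% lower. The 25.6% of members that were higher is thus close to the share among well expressed protein-coding genes, whereas the share that was lower, 1.11%, is below it. Single whole marrow libraries weighed on this count: 12 members were higher without replicate 1, 19 without replicate 2, 13 without replicate 3 and 12 without replicate 4. The deposited scaling, in which the median of all genes lies at 0.67, put 85 members higher and none lower (limma, adjusted p under 0.05), beside 51.5% of all genes higher. Subtracting from each library the mean of its olfactory and vomeronasal receptor genes left 14 members higher, beside 22.4% of all genes. Quantile scaling left 18 higher, beside 24.3% of all genes. In both settings the share of members was below that of all genes, unlike in the main result.

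AML against lineage-negative marrow sets it beside immature normal cells. In AML 7 members (7.78%) were higher and 21 (23.3%) lower, with a median of −0.084. Over single libraries left out this median ran from −0.21 without lineage-negative replicate 4 to −0.025 without AML replicate 7. It was −0.20 without lineage-negative replicate 3, −0.17 without replicate 1, −0.13 without AML replicate 2 and −0.044 without AML replicate 3. Among all genes 26.1% were higher and 25.5% lower, and among the well expressed protein-coding genes 30.9% and 33.0%. Neither share of members exceeded these backgrounds, and 62 members did not pass. The higher count was 2 without lineage-negative replicate 3, 4 without replicate 4 and 13 with sample weights, and the lower count ran from 14 to 24 over the alternatives. Of the 7 higher members, 5 belonged to complex I and 2 to complex IV. The 21 lower ones comprised 6 of complex I, 3 each of complexes II and III, 1 of complex IV, 4 of complex V and 4 assembly factors. The lineage-negative and whole marrows, compared to show what removal of mature cells changes, differed more widely: 44 members (48.9%) were higher in lineage-negative marrow and 1 (1.11%) lower, with a median of 0.48. At least 2-fold higher were 7 members, beside 2075 of 18941 genes, and at least 2-fold lower was 1, Cox6a2, beside 24.8% of all genes. Over all genes 24.9% were higher and 31.5% lower at any fold, and over well expressed protein-coding genes 36.4% and 27.2%. The 3 comparisons share libraries in pairs, so their counts are not independent of each other.

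**Figure D1:**
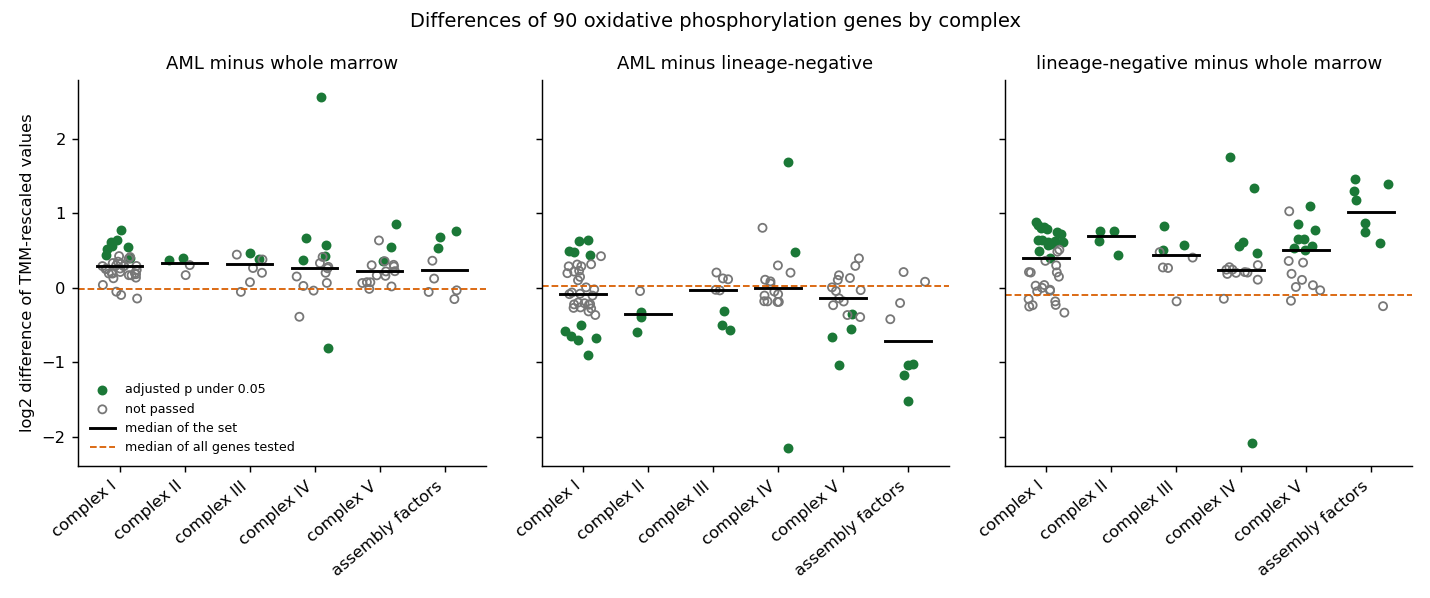
Log2 difference of each of 90 oxidative phosphorylation genes, by complex (horizontal axis), in the 3 comparisons. Filled points passed at an adjusted p under 0.05 (limma), bars are medians of a set and the dashed line is the median of all genes tested. The 8 assembly factors have the lowest median between AML and lineage-negative marrow, −0.72, and the highest between lineage-negative and whole marrow, 1.03.

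Complex I has 7 nuclear core subunits, which hold the flavin and the iron-sulfur clusters, and many accessory subunits around them. Between lineage-negative and whole marrow 6 of the 7 core subunits were higher in lineage-negative marrow. Beside them stand 24.9% of all genes and 36.4% of the well expressed protein-coding genes. Ndufs1 (ENSMUSG00000025968, chromosome 1, 63182755 to 63215992), the largest subunit of the NADH-binding arm, had 1343, 1259.9, 1504 and 1144 rescaled counts in whole marrow replicates 1 to 4 and 1812, 2182.4, 1796 and 2208 in lineage-negative replicates 1 to 4. In AML it had 1054 at the lowest, 1279 at the median and 1337 at the highest. All 7 AML libraries lay below every lineage-negative library and overlapped whole marrow. Gene positions are those of the authors' table. The submitters' processing notes name mm10, but of 38066 genes also in the mm10 annotation only 861 have the same start, so the build of these positions is uncertain. Ndufs1 fell in AML against lineage-negative marrow, with a log2 difference of −0.70 (SE 0.11, adjusted p = 4.02e-05), and rose in lineage-negative against whole marrow by 0.61 (SE 0.12, adjusted p = 0.000501). Against whole marrow the AML value was −0.10 (SE 0.11, adjusted p = 0.527), and 0.60 with the deposited scaling. Ndufv1 (ENSMUSG00000037916, chromosome 19, 4057384 to 4062806), which binds NADH and the flavin, had 1278 at the lowest, 1490.3 at the median and 2062 at the highest in AML, 1019.5, 1435, 1349 and 1176 in whole marrow, and in lineage-negative marrow 2509.8, 2413, 1950.3 and 1778. Here AML replicate 4, at 2062, reached into the lineage-negative range. Ndufv1 fell by 0.50 (SE 0.14, adjusted p = 0.00718) in AML against lineage-negative marrow, a call that was lost with the deposited scaling, at −0.51. Ndufv2, the remaining core subunit of this arm, had 1015 ± 143 (SD, n = 7) in AML and 1166 ± 202 (SD, n = 4) in lineage-negative marrow, a difference of −0.20 (adjusted p = 0.215).

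In the ubiquinone-binding arm Ndufs3 and Ndufs8 were higher in AML than in whole marrow, and neither passed between AML and lineage-negative marrow. Ndufs3, a core subunit of that arm, had 604 ± 62.5 (SD, n = 7) in AML, 422 ± 55.8 (SD, n = 4) in whole marrow, and in lineage-negative marrow 712 ± 127 (SD, n = 4), and was higher by 0.52 (adjusted p = 0.00388) in AML than in whole marrow. Ndufs8, which carries iron-sulfur clusters, was higher by 0.40 (adjusted p = 0.014), with every AML library (903 to 1329) above every whole marrow library (756 to 877). Without whole marrow replicate 1 that call was lost, at 0.37, as it was without replicate 4, at 0.36. Ndufs7, the subunit that holds the last cluster before ubiquinone, had 601 ± 36.97 (SD, n = 7) in AML and 496 ± 99.8 (SD, n = 4) in whole marrow and did not pass, at 0.29 (adjusted p = 0.0855). Whether the 2 arms of complex I differ was not tested.

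Among the 30 accessory subunits tested, 5 were higher and 4 lower in AML than in lineage-negative marrow, shares below the 26.1% and 25.5% of all genes. Ndufa6 (ENSMUSG00000022450, chromosome 15, 82234341 to 82238523), a small protein that binds the mitochondrial acyl carrier protein, had 1179.9 at the lowest, 1323 at the median and 1677 at the highest in AML. Its values were 684, 909, 775 and 848 in whole marrow, and in lineage-negative marrow 930.2, 995, 792 and 846, so every AML library was above all 8 normal ones. Ndufa6 rose by 0.77 (SE 0.11, adjusted p = 4.83e-05) against whole marrow and by 0.62 (SE 0.11, adjusted p = 0.000193) against lineage-negative marrow, while the normal groups differed by 0.15 (adjusted p = 0.338). It was the only complex I gene that passed as higher against both normal groups. Ndufb1, a short protein of the membrane arm, was higher than in lineage-negative marrow by 0.64 (adjusted p = 0.0315). Its lineage-negative values were 468, 1158, 779 and 1102 and its AML values 1025 to 2123, which overlap, and the call was lost without lineage-negative replicate 1 (0.37) or 3 (0.54) and without AML replicate 2 (0.52) or 4 (0.58). Ndufa3 was higher by 0.50 (adjusted p = 0.00703), lost without lineage-negative replicate 3, at 0.40. Ndufa13, also known as Grim19, and Ndufa1 were higher by 0.48 (adjusted p = 0.025) and 0.44 (adjusted p = 0.0394).

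The lower accessory subunits were Ndufa5, Ndufab1, Ndufa10 and Ndufa12. Ndufa10 had 1179 ± 145 (SD, n = 7) in AML, 1033 ± 59.1 (SD, n = 4) in whole marrow, and in lineage-negative marrow 1830.4 ± 162 (SD, n = 4), and fell by 0.64 (adjusted p = 7.04e-05). Ndufab1, the mitochondrial acyl carrier protein, which also serves fatty acid and lipoic acid synthesis, had 166 to 294 in AML and 309.7, 380.4, 411 and 312 in lineage-negative marrow. It fell by 0.67 (adjusted p = 0.00404) with no overlap. Ndufa5 had the lowest difference of the complex I subunits, −0.90 (SE 0.20, adjusted p = 0.00107), with AML at 197 at the lowest, 275 at the median and 401 at the highest and lineage-negative marrow at 616, 589.7, 397 and 493. AML replicate 4 reached lineage-negative replicate 3 there. Ndufa12 was lower, at −0.58 (adjusted p = 0.0268), although lineage-negative replicate 1, at 278, lay below the other 3, at 568 to 782. Against whole marrow, Ndufb5 of the membrane arm rose by 0.61 (adjusted p = 0.000511), from 532 to 734 in whole marrow to 874 to 1148 in AML. Ndufb9 had the lowest complex I value in that comparison, −0.14 (adjusted p = 0.578), and did not pass. With the deposited scaling it was 0.55.

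The 8 assembly factors, chaperones that help build complex I and leave it, had the lowest median of the 6 sets in AML against lineage-negative marrow: 4 fell, each by at least 2-fold, and none rose. Of all genes tested, 12.4% fell by at least 2-fold in that comparison. Ndufaf4 (ENSMUSG00000028261, chromosome 4, 24898083 to 24905001) had 135 at the lowest, 201 at the median and 262 at the highest in AML, 180.1, 171, 235 and 222 in whole marrow, and in lineage-negative marrow 317, 832, 684 and 523. Lineage-negative replicate 1 was the lowest of its group and still above every AML library. Ndufaf4 fell by 1.52 (SE 0.23, adjusted p = 2.76e-05) in AML against lineage-negative marrow, and AML and whole marrow differed by −0.054 (adjusted p = 0.873), or 0.64 with the deposited scaling. Ndufaf1 (ENSMUSG00000027305, chromosome 2, 119485927 to 119493308), an early factor of the membrane arm, had 157 at the lowest, 174 at the median and 193 at the highest in AML, a narrow range, 192, 171, 202 and 205 in whole marrow, and in lineage-negative marrow 296, 430.2, 333 and 356. Ndufaf1 fell by 1.02 (SE 0.13, adjusted p = 4.64e-06) against lineage-negative marrow. Against whole marrow it was −0.15 (adjusted p = 0.388), and 0.54 with the deposited scaling.

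Ndufaf2 and Ndufaf6, both with low levels, fell too. Ndufaf2, a paralog of Ndufa12 that holds its place during assembly, had 84.3 ± 19.7 (SD, n = 7) in AML and 189.5 ± 35.9 (SD, n = 4) in lineage-negative marrow and fell by 1.17 (adjusted p = 0.000136). For Ndufaf6 the values were 50.2 ± 10.2 (SD, n = 7) and 102 ± 6.95 (SD, n = 4), a difference of −1.03 (adjusted p = 0.000613). In both genes the AML libraries lay below every lineage-negative library. Ndufaf7, an arginine methyltransferase that acts during assembly, was not lower: it had 503 ± 65.4 (SD, n = 7) in AML and 475 ± 68.4 (SD, n = 4) in lineage-negative marrow, at 0.083 (adjusted p = 0.613), and was higher than in whole marrow (273 to 339) by 0.69 (adjusted p = 0.000433). Ndufaf3 had 254 ± 28.3, 261 ± 38.6 and 219.6 ± 28.9 in AML, whole and lineage-negative marrow and passed in no comparison. Its AML value against whole marrow was −0.033, and 0.66 with the deposited scaling. Between the normal groups 7 of 8 assembly factors were higher in lineage-negative marrow, from 0.61 for Ndufaf7 to 1.47 for Ndufaf4, beside 24.9% of all genes. Ndufaf3 was at −0.25, and at 0.45 with the deposited scaling. Ndufaf5 was higher in AML than in whole marrow by 0.76 (adjusted p = 0.0189), lost without whole marrow replicate 3 (0.73) or 4 (0.50).

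**Figure D2:**
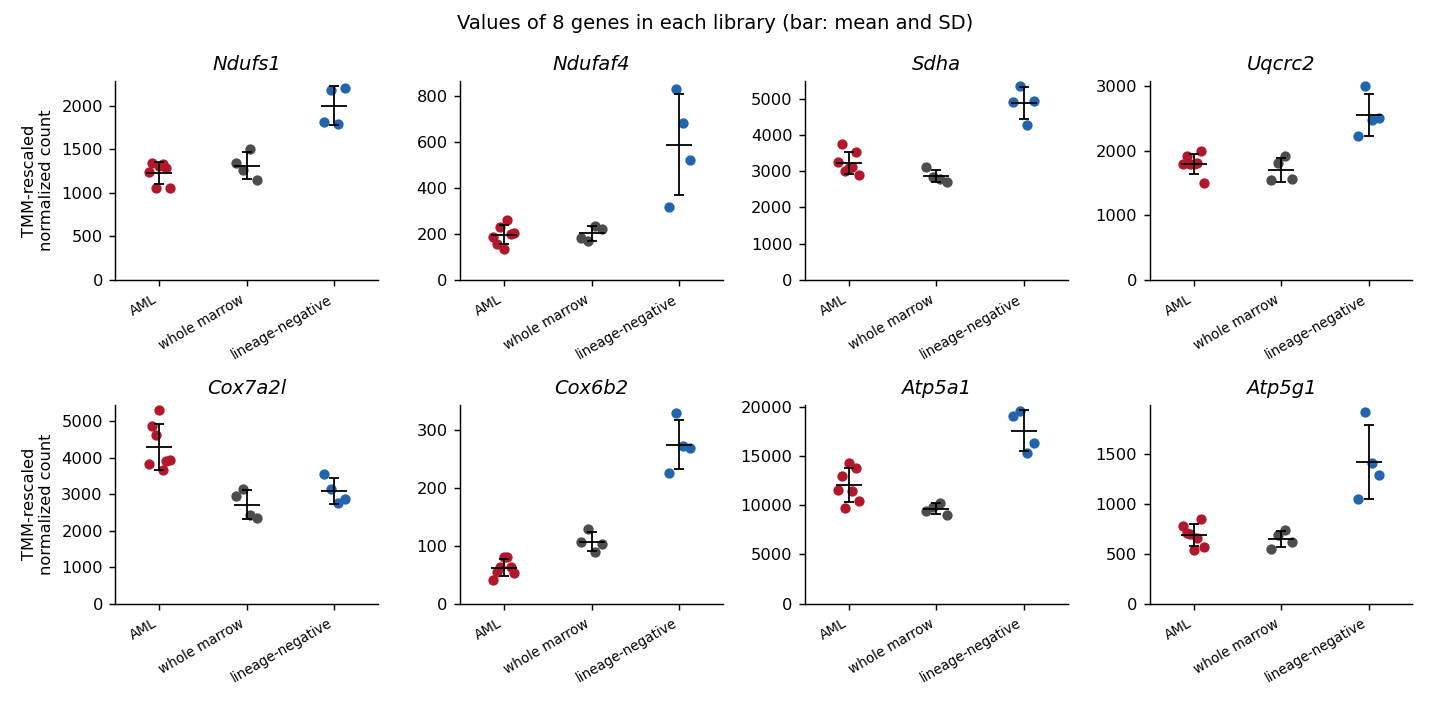
TMM-rescaled normalized counts (vertical axes, from 0) of 8 genes in each of 15 libraries, with the mean and SD of each group. Lineage-negative marrow is highest for all but Cox7a2l, which is highest in AML, and AML and whole marrow lie close together for Ndufs1, Ndufaf4, Uqcrc2 and Atp5g1.

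Complex II, succinate dehydrogenase, is wholly nuclear-encoded and is also an enzyme of the tricarboxylic acid (TCA) cycle. All 4 subunits were higher in lineage-negative than in whole marrow, beside 24.9% of all genes and 36.4% of the well expressed protein-coding genes. Sdha (ENSMUSG00000021577, chromosome 13, 74470373 to 74498399), the flavoprotein that oxidises succinate, had 2896 at the lowest, 3127 at the median and 3742 at the highest in AML, 3110.3, 2840.1, 2793 and 2703 in whole marrow, and in lineage-negative marrow 4905, 5353, 4279.5 and 4940.5. Every lineage-negative library was above the other 11. Sdha fell by 0.59 (SE 0.10, adjusted p = 7.78e-05) in AML against lineage-negative marrow and differed from whole marrow by 0.17 (adjusted p = 0.187). Of the anchors, which bind ubiquinone and heme, Sdhc had 1136 ± 223 (SD, n = 7) in AML and 1474 ± 172 (SD, n = 4) in lineage-negative marrow, and was lower, at −0.39 (adjusted p = 0.0256). That call was lost without AML replicate 7 (−0.33) or lineage-negative replicate 1 (−0.33). Sdhd was lower, at −0.32 (adjusted p = 0.038), a call that did not hold without AML replicate 2, 3, 5 or 7 or lineage-negative replicate 2, at values from −0.32 to −0.27. Sdhb, the iron-sulfur subunit, had 1293 ± 206 (SD, n = 7) in AML and 1325 ± 180.0 (SD, n = 4) in lineage-negative marrow, at −0.042 (adjusted p = 0.799). Sdhb and Sdhc were higher in AML than in whole marrow, by 0.40 (adjusted p = 0.0198) and 0.37 (adjusted p = 0.0435), and both calls were lost whenever any 1 whole marrow library was left out, with values of 0.35 to 0.40 for Sdhb and 0.29 to 0.41 for Sdhc. The call for Sdhc was also lost without AML replicate 2, 4, 5 or 6, at 0.29 to 0.38.

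Complex III, which passes electrons from ubiquinol to cytochrome c, had 3 of 8 subunits lower in AML than in lineage-negative marrow and 2 higher than in whole marrow, beside 25.5% and 16.9% of all genes and 33.0% and 25.9% of the well expressed protein-coding genes. Uqcrc2 (ENSMUSG00000030884, chromosome 7, 120234399 to 120258747), one of the pair of large core proteins, had 1495 at the lowest, 1803 at the median and 2005 at the highest in AML, 1548, 1808, 1921 and 1559 in whole marrow, and in lineage-negative marrow 2235, 3007, 2471 and 2514. AML lay wholly below lineage-negative marrow and overlapped whole marrow. Uqcrc2 fell by 0.50 (SE 0.11, adjusted p = 0.000786) against lineage-negative marrow. Uqcrc1, the other core protein, was lower, at −0.31 (adjusted p = 0.0347), a call lost without lineage-negative replicate 1 (−0.29) or 2 (−0.29) and without AML replicate 2 (−0.30), 3 (−0.29), 5 (−0.30) or 7 (−0.24). Uqcr11, a small subunit, was lower, at −0.56 (adjusted p = 0.00623). Uqcrfs1, the Rieske iron-sulfur protein, had 1463 at the lowest, 1695 at the median and 1924 at the highest in AML and 989, 1328, 1286 and 1277 in whole marrow, with no overlap, and rose by 0.47 (SE 0.12, adjusted p = 0.00622). Lineage-negative marrow, at 1166, 1811, 1545 and 1387, lay across both.

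Lineage-negative replicate 1 stood apart in some genes of complexes I, III, IV and V, which are named here after their values were seen. Uqcrb had 229, 1005, 829 and 939 in lineage-negative replicates 1 to 4, against 596 to 959.7 in AML. Its difference between AML and lineage-negative marrow was 0.13 (adjusted p = 0.737) with that library and −0.37, past the threshold, without it. For Ndufa4 of complex IV the lineage-negative values were 532, 2998, 2382 and 1747, and the difference went from −0.18 (adjusted p = 0.667) to −0.71, also past the threshold. Cox7c had 239, 829, 632 and 506 and Ndufb4 had 53.4, 251, 202 and 165 in the same libraries. In complex V, Atp5c1 had 1931, 3847, 3007 and 3210 and Atp5l had 484, 1059, 894 and 983. Not all genes of complex V were low in replicate 1: Atp5d had 2942, 2292, 1730 and 2051. The 13 transcripts of mitochondrial DNA summed to 47318 in lineage-negative replicate 1 and to at most 250278 in the other 3, with a median of 242454 over the 4. Over the group of 90 members, replicate 2 was the highest of the lineage-negative libraries.

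In complex IV, cytochrome c oxidase, 2 of 16 members tested were higher in AML than in lineage-negative marrow and 1 was lower, shares below the 26.1% and 25.5% of all genes. Against whole marrow 5 were higher and 1 was lower, beside 25.9% and 13.8% of the well expressed protein-coding genes. Its nuclear-encoded subunit Cox4i1 (ENSMUSG00000031818, chromosome 8, 121394961 to 121400946), which binds ATP, had 5065 at the lowest, 5680.4 at the median and 8407 at the highest in AML. The values were 3465, 4797, 4319.8 and 3759 in whole marrow, and in lineage-negative marrow 5469, 5671, 4325 and 4350.4. AML lay wholly above whole marrow, and Cox4i1 rose by 0.58 (SE 0.15, adjusted p = 0.00465). The value against lineage-negative marrow was 0.30 (adjusted p = 0.0942). Cox4i1 shares part of its position with Emc8 on the other strand, and how strand was used in counting is not given in the sources used here. Cox5a and Cox5b, structural subunits on the matrix side, were higher in AML than in whole marrow by 0.43 (adjusted p = 0.0232) and 0.38 (adjusted p = 0.0434). Without whole marrow replicate 1 they no longer passed, at 0.32 and 0.35, nor without replicate 4, at 0.41 and 0.36. Cox5b was also lost without whole marrow replicate 2 or 3 or AML replicate 1, 2, 4 or 6, at 0.33 to 0.37. Cox7a2l (ENSMUSG00000024248, chromosome 17, 83809347 to 83824759), which joins complexes III and IV in supercomplexes, had 3659 at the lowest, 3937 at the median and 5309 at the highest in AML, 2952, 3138, 2433 and 2337 in whole marrow, and in lineage-negative marrow 3548, 3152, 2769 and 2859.7. Every AML library was above all 8 normal libraries, and Cox7a2l rose by 0.66 (SE 0.13, adjusted p = 0.000567) and 0.48 (SE 0.13, adjusted p = 0.00457). With quantile scaling the second value was 0.30 and did not pass.

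Isoforms of complex IV subunits gave the highest and the lowest difference of the 90 members between AML and lineage-negative marrow. Cox6b2 (ENSMUSG00000051811, chromosome 7, 4754791 to 4756093), known as a testis isoform of Cox6b1, had 40.6 at the lowest, 62.6 at the median and 79.96 at the highest in AML, 107, 129.7, 89.6 and 103 in whole marrow, and in lineage-negative marrow 226, 329.6, 272 and 269.8. The 3 groups did not overlap. Cox6b2 fell by 2.15 (SE 0.20, adjusted p = 1.48e-07) in AML against lineage-negative marrow and fell by 0.80 (SE 0.20, adjusted p = 0.00493) against whole marrow, the latter −0.12 and not passed with the deposited scaling. Its partner Cox6b1 had 2586 ± 748 (SD, n = 7), 2096 ± 284 (SD, n = 4) and 2425 ± 403 (SD, n = 4) in AML, whole and lineage-negative marrow and passed in no comparison. Of the per-length level of both genes, Cox6b2 made up 2.62% ± 0.925 (SD, n = 7) in AML, 5.18% ± 0.883 (SD, n = 4) in whole marrow, and in lineage-negative marrow 10.7% ± 1.15 (SD, n = 4). Such a share within a library does not depend on the scaling between libraries.

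Cox6a2, the heart and muscle isoform of Cox6a1, had 5.60 at the lowest, 75.3 at the median and 100.1 at the highest in AML, 86.2, 50.9, 54.01 and 56.4 in whole marrow, and in lineage-negative marrow 12.2, 17.4, 13.1 and 12.03. The lineage-negative values lie within the wide AML range and below whole marrow. Cox6a2 was higher in AML than in lineage-negative marrow by 1.69 (SE 0.59, adjusted p = 0.0238), lost without lineage-negative replicate 1 (1.65), 3 (1.61) or 4 (1.57), and lower in lineage-negative than in whole marrow, at −2.08 (SE 0.67, adjusted p = 0.0136). The latter did not pass with the deposited scaling, at −1.40, or with quantile scaling, at −1.44. It overlaps the integrin gene Itgad. Cox4i2, the isoform induced by low oxygen in lung, had 3.21 at the lowest, 14.1 at the median and 20.6 at the highest in AML, 8.14, 10.6, 3.09 and 6.30 in lineage-negative marrow and 5.75, 0, 2.63 and 0 in whole marrow. All 4 whole marrow values are at or below the range of the floor of 3 reads, so no fold is given. Cox4i2 passed as higher in AML than in whole marrow (adjusted p = 0.00228). Cox7a1 had 3.13 to 10.2, 1.32 to 15.4 and 2.31 to 4.58 in AML, whole and lineage-negative marrow, and Ndufa4l2 at most 5.70 in any library. Ndufb11b of complex I was at 0 in all 7 AML libraries and at most 15.3 elsewhere. The common isoforms Cox6a1, Cox7a2, Cox7b and Cox8a passed in no comparison, with values between AML and lineage-negative marrow of −0.084, 0.11, −0.049 and 0.20. Against whole marrow Cox7a2 was at −0.036, and at 0.66 with the deposited scaling.

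Complex V had 4 of 17 members lower in AML than in lineage-negative marrow and none higher, beside 25.5% and 26.1% of all genes. Atp5a1 and Atp5b encode the alpha and beta subunits of the catalytic head, of which beta carries the active site. Atp5b (ENSMUSG00000025393, chromosome 10, 127919142 to 127926260) had 9818 at the lowest, 11864 at the median and 14156 at the highest in AML, 10527, 12331, 13015 and 11623 in whole marrow, and in lineage-negative marrow 17513, 22448, 17445 and 17395. The whole marrow range lies within that of AML, and both lie below lineage-negative marrow, where replicate 2 is the highest. Atp5b fell by 0.66 (SE 0.13, adjusted p = 0.000397) against lineage-negative marrow, and against whole marrow it was at −0.013 (adjusted p = 0.948), or 0.68 with the deposited scaling. Atp5a1 (ENSMUSG00000025428, chromosome 18, 77861429 to 77870569) had 9723 at the lowest, 11563 at the median and 14312 at the highest in AML, 9469, 9873, 10285 and 9055 in whole marrow, and in lineage-negative marrow 19139.6, 19631, 15331 and 16348. It fell by 0.55 (SE 0.13, adjusted p = 0.00204), with no overlap. Per kilobase of transcript, Atp5b and Atp5a1 were the 2 highest of all 93 members in lineage-negative marrow, at 9760.0 ± 1304 (SD, n = 4) and 7128 ± 849 (SD, n = 4). Cox4i1 came next, at 6475 ± 936 (SD, n = 4), and differed from Atp5a1 by less than the SD of either gene. By contrast, in AML Cox4i1 was the highest, at 8028 ± 1514 (SD, n = 7), followed by Atp5b, at 6161 ± 755 (SD, n = 7), and Atp5a1, at 4870.2 ± 697 (SD, n = 7). In whole marrow the order was Atp5b at 6197 ± 555 (SD, n = 4), Cox4i1 at 5340.1 ± 774.3 (SD, n = 4) and Atp5a1 at 3914 ± 214 (SD, n = 4).

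None of the 3 genes of the central stalk, which turns inside the head, passed between AML and lineage-negative marrow. Atp5c1, its gamma subunit, had 3289 ± 361 (SD, n = 7) in AML, 2563 ± 269 (SD, n = 4) in whole marrow, and in lineage-negative marrow 2999 ± 797 (SD, n = 4), at 0.17 (adjusted p = 0.368) against the last. Atp5e, the small epsilon subunit, rose in AML against whole marrow by 0.85 (SE 0.20, adjusted p = 0.00252), from 569, 1139, 939 and 853 to 1054 at the lowest, 1618 at the median and 2144 at the highest, with overlap. Atp5d, the delta subunit, was higher by 0.55 (adjusted p = 0.0198). The c ring, which turns as protons pass, is made of 1 protein that comes from 3 genes. Atp5g1 (ENSMUSG00000006057, chromosome 11, 95959678 to 95966496) had 539 at the lowest, 695 at the median and 843 at the highest in AML, 548, 684, 731 and 614 in whole marrow, and in lineage-negative marrow 1043, 1919, 1403 and 1288. Atp5g1 fell by 1.03 (SE 0.16, adjusted p = 3.09e-05), with no overlap. Atp5g3, which gave 89.7% ± 1.73 (SD, n = 7) of the per-length level of the 3 genes in AML, had 1431 ± 109 (SD, n = 7) there and 1959 ± 778 (SD, n = 4) in lineage-negative marrow, at −0.36 (adjusted p = 0.149). The share of Atp5g1 was 5.41% to 8.02% in AML, 6.86% to 8.72% in whole marrow and 8.77% to 12.7% in lineage-negative marrow. These shares rest on the transcript chosen for each gene, and that of Atp5g1, at 4715 bases, was the longest of the members tested. Without division by length the genes lay closer, with 539 to 843 rescaled counts for Atp5g1 and 1300 to 1583 for Atp5g3 in AML. Atp5g2 was low, with 27.03 to 99.4 in AML, and passed in no comparison. In the membrane part none of 5 genes passed in any comparison, and Atp5l was at 0.40 (adjusted p = 0.126) between AML and lineage-negative marrow. Of the 4 genes of the peripheral stalk, Atp5o alone passed there, at −0.35 (adjusted p = 0.028). The c-ring genes encode the same mature protein but differ in the rest of the transcript, and how reads between them were assigned is not given in the sources used here.

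The level of a set in a library was summarised as the median over its genes of the log2 value minus the gene's mean over the 15 libraries. Over all 90 members this level was −0.16 to 0.22 in AML, −0.34 to −0.10 in whole marrow and 0.067 to 0.49 in lineage-negative marrow. The AML libraries overlapped both normal groups. For the assembly factors it was 0.42 to 0.76 in lineage-negative marrow and −0.27 to 0.068 in AML, and for complex II 0.21 to 0.55 and −0.26 to 0.12. In both sets AML and lineage-negative marrow did not overlap, and in complexes I, III, IV and V they did.

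**Figure D3:**
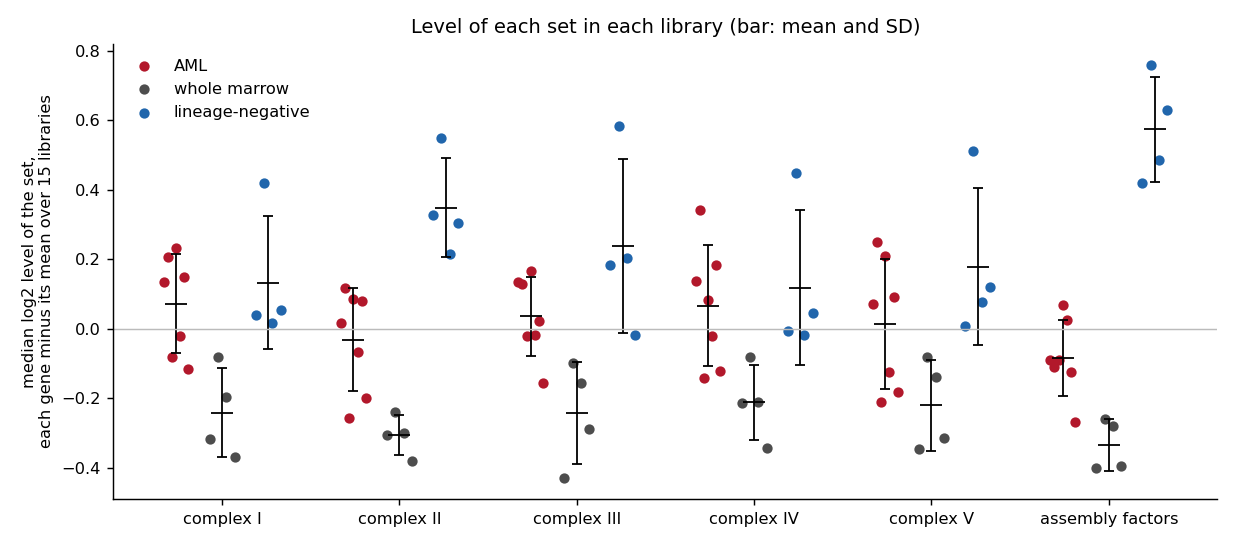
Median log2 level of each set of genes in each of 15 libraries, each gene taken relative to its mean over the libraries, with the mean and SD of each group. Lineage-negative replicate 2 is the highest point in every set, and the AML points overlap those of lineage-negative marrow in complexes I, III, IV and V but not in complex II or the assembly factors.

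Shares within a library compare the complexes without any scaling between libraries. Of the summed per-length level of the 85 subunit genes, complex V made up 31.1% ± 0.223 (SD, n = 4) in lineage-negative marrow, 27.8% ± 0.522 (SD, n = 7) in AML and 28.7% ± 0.777 (SD, n = 4) in whole marrow. Every lineage-negative library, at 30.95% or more, was above every other library, which reached 29.4%. Complex II made up 3.83% ± 0.138 (SD, n = 4), 3.19% ± 0.189 (SD, n = 7) and 3.18% ± 0.146 (SD, n = 4) in the same order, again without overlap between lineage-negative marrow and the others. Complexes I and IV took the opposite order: complex I made up 26.4% ± 1.21 (SD, n = 4) in lineage-negative marrow and 28.6% ± 0.133 (SD, n = 7) in AML, and complex IV 27.3% ± 0.917 (SD, n = 4) and 29.5% ± 0.570 (SD, n = 7). The AML share of complex IV, 28.7% to 30.3%, lay above the lineage-negative range of 25.9% to 27.9% and overlapped whole marrow. The ranges of complex III overlapped, with 10.5% to 11.3% in AML beside 10.9% to 11.9% for lineage-negative marrow.

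Within complex V the groups differed in the catalytic head. Atp5a1 and Atp5b together gave 12.3% ± 0.652 (SD, n = 4) of all subunit level in lineage-negative marrow, 8.44% ± 0.664 (SD, n = 7) in AML and 9.53% ± 0.478 (SD, n = 4) in whole marrow. With both genes left out, complex V made up 21.5%, 21.2% and 21.2% of the rest, with SDs of 0.678, 0.558 and 0.630, differences smaller than the spread. Within complex I, the 7 core subunits gave 17.6% to 18.7% of the level in lineage-negative marrow, 14.2% to 15.6% in AML and 14.04% to 15.1% in whole marrow. The lineage-negative share was above all others, and AML and whole marrow overlapped. These shares describe the members by groupings made with their values known, and they carry no test. They also rest on the transcript length taken for each gene.

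**Figure D4:**
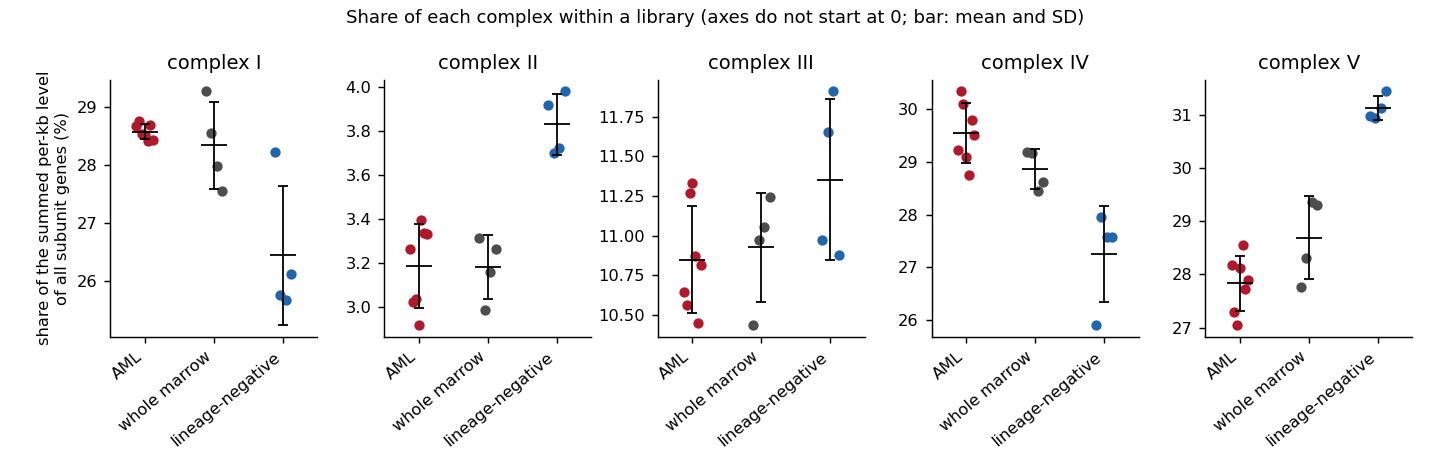
Share of each complex in the summed per-kilobase level of 85 subunit genes (vertical axes in percent, not from 0) in each of 15 libraries, with the mean and SD of each group. Lineage-negative marrow stands above the other groups in complexes II and V and below AML in complexes I and IV.

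Members with longer transcripts were more often among those lower in AML than in lineage-negative marrow, a description with no test. The transcript of a member was 371 to 4715 bases long, with a median of 863 among those tested. Of 45 members at or above the median, 17 (37.8%) were lower in AML and 2 (4.44%) higher. Of the 45 below it, 4 (8.89%) were lower and 5 (11.1%) higher. Among all genes 25.5% were lower and 26.1% higher, and among the well expressed protein-coding genes 33.0% and 30.9%. The share of longer members that were lower is thus near that of the well expressed genes, and the share of shorter members lies below it. Across the 90 genes Spearman's rho of the difference with length was −0.397 for AML against lineage-negative marrow, 0.339 for lineage-negative against whole marrow and −0.087 for AML against whole marrow. Across 10238 protein-coding genes with a mean of at least 100 and a known length the rho values were −0.025, −0.025 and −0.084. All genes share the libraries and are not independent replicates, so these are descriptions. The median level of short members minus that of long members was −0.25 to −0.15 in the 4 lineage-negative libraries, 0.015 to 0.10 in AML and −0.0018 to 0.11 in whole marrow. Over the 10238 protein-coding genes split at the same length it was −0.24 to 0.18, −0.095 to 0.18 and −0.20 to 0.059, with overlap. Only 437 of those genes were shorter than this length and 9801 were not, unlike the even split of the members. The part of transcript length in these results was not tested.

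**Figure D5:**
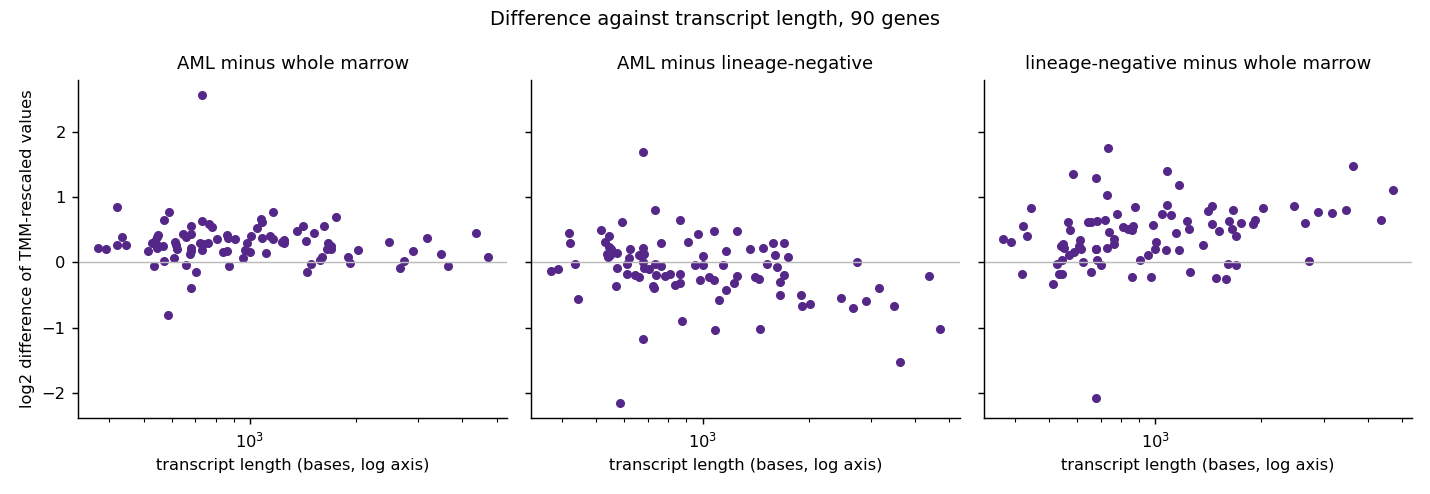
Log2 difference (vertical axis) of 90 oxidative phosphorylation genes against the length of their main transcript (horizontal log axis, in bases), for the 3 comparisons. Between AML and lineage-negative marrow the longer transcripts lie lower (Spearman's rho −0.397), and between AML and whole marrow there is little slope (−0.087).

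Other mitochondrial genes, in lists by function, are read beside the 25.5% of all genes that were lower in AML than in lineage-negative marrow. Of 17 enzymes of the TCA cycle and pyruvate dehydrogenase, 15 were lower in AML and none higher (limma, adjusted p under 0.05), with a median of −0.45. Idh3a, the catalytic subunit of isocitrate dehydrogenase, had 786 ± 133 (SD, n = 7) in AML, 811 ± 116 (SD, n = 4) in whole marrow, and in lineage-negative marrow 1868 ± 279 (SD, n = 4) and fell by 1.25 (adjusted p = 1.33e-06). Suclg2, of the GTP-forming succinyl-CoA ligase, fell by 1.38 (adjusted p = 1.85e-06). Against whole marrow 4 TCA genes (23.5%) were higher in AML, among them Fh1, fumarase, at 0.55 (adjusted p = 0.00452). Beside them stand 16.9% of all genes and 25.9% of the well expressed protein-coding genes. Of 83 genes of the mitochondrial ribosome, taken by name and with pseudogenes such as Mrps36-ps2 among them, 46 were lower and 2 higher than in lineage-negative marrow, with a median of −0.51, and 20 were higher and 1 lower than in whole marrow, beside 25.9% and 13.8% of the well expressed protein-coding genes. Of 18 genes of ubiquinone synthesis and other electron carriers 12 were lower and none higher (limma), with Coq7 at −1.27 (adjusted p = 0.000644).

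Assembly factors of the other complexes were lower in AML than in lineage-negative marrow for 9 of 23 genes of complex IV, 4 of 6 of complex III, 3 of 5 of complex V and 1 of 4 of complex II. In complex IV, 3 were higher. Lrpprc, which stabilises mitochondrial messenger RNA, had 1157 ± 115 (SD, n = 7) in AML and 2623 ± 265 (SD, n = 4) in lineage-negative marrow and fell by 1.18 (adjusted p = 7.91e-08). Cox10, which makes heme for complex IV, fell by 1.12 (adjusted p = 2.33e-06), and Surf1, an assembly factor of the same complex, was higher, with 575 ± 64.7 (SD, n = 7) in AML against 371 ± 35.002 (SD, n = 4), at 0.63 (adjusted p = 0.000181). Bcs1l, which inserts the Rieske protein Uqcrfs1 into complex III, fell by 1.02 (adjusted p = 5.01e-05). Of 18 regulators of mitochondrial biogenesis, 9 were lower and 2 higher. Twnk, the mitochondrial DNA helicase, fell by 1.503 (adjusted p = 4.2e-07) and Pprc1, a coactivator of NRF1, fell by 1.48 (adjusted p = 3.6e-05). Nrf1 itself had 1238 ± 140.4 (SD, n = 7) in AML, 1697 ± 52.5 (SD, n = 4) in whole marrow, and in lineage-negative marrow 1307 ± 167 (SD, n = 4). With TMM scaling Nrf1 was lower in AML than in whole marrow, at −0.46 (adjusted p = 0.00252), a difference smaller than the 0.67 by which the deposited scaling moves the median of all genes upward. It was at −0.078 (adjusted p = 0.563) against lineage-negative marrow. Esrra and Polg2 were the 2 regulators that were higher than in lineage-negative marrow, at 0.62 (adjusted p = 0.00222) and 0.64 (adjusted p = 0.00123). The 13 genes of mitochondrial DNA, which encode the remaining subunits, summed to 141017 to 805164 in AML. The sums were 115102 to 137814 in whole marrow and 47318 to 250278 in lineage-negative marrow. In AML 8 of the 13 were higher than in whole marrow, beside 16.9% of all genes. Only 1 was higher than in lineage-negative marrow, beside 26.1% of all genes.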

How the data were processed

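Total RNA of 15 mouse bone marrow samples was sequenced from stranded libraries, per the labels' protocols. The authors deposited 1 table of normalized counts (a signal: estimated counts divided by a size factor per library). The submitters' processing notes name STAR, Partek, DESeq2 and mm10, without versions. Since the values are not whole counts, no count test was run: 82.2% to 87.1% of low values were whole multiples of 1 read's worth, within a tolerance of 0.02. Values were rescaled by TMM (written in R 4.3.3, trims of 30% and 5%), filtered to genes of at least 10 in at least 4 samples, and tested with limma 3.58.1 on log2(value + 1), a scale that understates changes of low genes. One mean per group was fitted over all 15 samples with a mean-variance trend, two-sided, with Benjamini-Hochberg adjustment over the 18941 genes kept. The procedure was tested on simulated data. Levels per kilobase use the principal transcript of GENCODE M21, and promoters come from RefSeq. Other transcripts of a gene were not tried, so shares and ranks per kilobase and the relation with length rest on this choice.

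Members, lists and tests were chosen with earlier results of these data known. Genes were named by rule: core subunits, isoforms and their partners, the highest and the lowest difference of each set in each comparison among members with a mean of at least 100, and members that passed with a 2-fold difference. Ndufa1, Ndufa10, Ndufa12, Ndufa13, Ndufab1, Ndufb4, Cox7c, Atp5d and Atp5o were named after their values were seen. Reads of 16 pseudogene rows made up 1.29% to 2.18% of the reads of members and pseudogenes together. A gene on the other strand overlapped 34 members and one on the same strand 5. Alternatives covered the scaling, pseudocount, filter, variance model, sample weights, a replicate block and each library left out. The samples' pairing by number was checked. Some results for single genes are not reported here.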

Additional observations from a re-analysis of the deposited data

Results flagged for a closer look

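Of 177 groups of values tested for a sample far from the others, 9 were flagged, and chance flags about 1 in 20. In lineage-negative marrow replicate 2 stood above the other 3 libraries in Atp5b, with 22448 rescaled counts against 17395 to 17513. The same library stood apart in the median log2 level of all members, with 0.49 against 0.067 to 0.11, of complex I, with 0.42 against 0.016 to 0.054, and of complex IV, with 0.45 against −0.020 to 0.045. In whole marrow replicate 1 was high in Cox6a2, with 86.2 against 50.9 to 56.4, and low in Uqcrfs1, with 989 against 1277 to 1328. Whole marrow replicate 2 was high in Atp5g2, with 62.2 against 26.5 to 28.9. In AML replicate 4 was high in Ndufs3, with 731 against 535 to 618, and replicate 7 low in Uqcrc2, with 1495 against 1789.9 to 2005.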

How the results depend on the processing

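The number of members higher in AML than in whole marrow was 23, beside 16.9% of all genes. It became 85 with the deposited scaling, beside 51.5%, and 37 with all genes of a non-zero value, beside 11.7%. With a mean of at least 50 it was 11 of 88 members, beside 16.7% of all genes. With receptor genes' background subtracted it was 14, beside 22.4%. In these last 2 settings the share of members was below that of all genes. Without 1 library it ran from 12 (without whole marrow replicate 1 or 4) to 31. The 1 lower member became 0 with the deposited scaling and 2 with all genes, and stayed at 1 without each library. Against lineage-negative marrow the 7 higher members became 4 with quantile scaling, 4 with all genes and 13 with sample weights, and ran from 2 (without lineage-negative replicate 3) to 9. The 21 lower members ran from 16 to 24. In lineage-negative against whole marrow the 44 higher members became 78 with the deposited scaling and ran from 38 to 49. The 1 lower member became 0 with the deposited or quantile scaling, 2 with TMM on protein-coding genes, all genes, a mean of at least 50 or the receptor background, and 4 with sample weights, and ran from 1 to 2. The deposited scaling moved the median of all genes to 0.67 in AML and 0.59 in lineage-negative marrow, both against whole marrow. It turned the direction, and past the threshold, in AML against whole marrow for Atp5b (0.68), Cox7a2 (0.66), Ndufa5 (0.64), Ndufaf1 (0.54), Ndufaf3 (0.66), Ndufb9 (0.55) and Ndufs1 (0.60), and between the normal groups for Ndufb9 (0.66). Without passing in either scaling, Cox6a2 (0.29), Ndufaf4 (0.64) and Uqcrb (0.64) also turned in AML against whole marrow, and Atp5l (0.53), Cox7a2 (0.56), Ndufa3 (0.37), Ndufaf3 (0.45), Ndufb1 (0.47) and Uqcrb (0.52) between the normal groups. Uqcrb in AML against lineage-negative marrow ran from −0.37 (without lineage-negative replicate 1, past the threshold) to 0.27 (without replicate 2). The cause was not tested. The members' median minus that of all genes was 0.295 in AML against whole marrow, with 0.081 with the receptor background and 0.925 with all genes as the extremes. Against lineage-negative marrow it was −0.114, from −0.199 without lineage-negative replicate 1 to −0.018 without replicate 2, and −0.025 with the replicate block.

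With the replicate block, 22 members were higher and 1 lower in AML than in whole marrow, 7 and 14 than in lineage-negative marrow, and 45 and 1 between the normal groups. Same-numbered samples correlated at −0.2655 to 0.1667 in their deviations from the group means. Differently numbered samples were not compared, so these values cannot settle whether the numbers pair the samples. Of 150 results for single genes, 139 with the block and 102 with the deposited scaling kept their side of the threshold, and their direction where they passed. Results that passed in neither fit are among these counts, whether or not their direction turned. Depth limits Cox4i2, Cox7a1, Ndufa4l2 and Ndufb11b, each with values at or under the floor of 3 reads in some libraries.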
